A study of Caenorhabditis elegans with 4 samples.

Results

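RNA polymerase II transcribes the protein-coding genes of the cell, and chromatin immunoprecipitation with sequencing (ChIP-seq) maps where the enzyme sits on DNA at the time of cross-linking. A peak is a stretch where the ChIP reads exceed those of input DNA, the sheared chromatin that was not precipitated. The peaks described here are the 699 peaks on chromosome II of Caenorhabditis elegans, chosen by their chromosome name alone, out of 6507 peaks in the whole list, or 10.7%. The material was L3 larvae of N2, the wild-type laboratory strain, all hermaphrodites, kept at 20 °C in liquid culture with the E. coli strain HB101 as food and fixed with formaldehyde. For the 2 ChIP samples the antibody was 8WG16, a mouse monoclonal that recognises the heptapeptide repeat at the C terminus of AMA-1, the largest subunit of the enzyme, and 2 input samples stood beside them. The labels do not say whether the 2 replicates were separate cultures. The authors deposited 1 combined peak list. Each peak therefore has a place and a q value but no value per sample, the depth is unknown, and no difference below was tested.

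Polymerase signal can take the form of a narrow peak, as at a promoter, or of a broad domain that runs along a heavily transcribed gene or a group of close genes. Many worm genes lie in operons, in which neighbouring genes are transcribed from a shared promoter. The middle of worm autosomes is rich in conserved and widely expressed genes, while the arms hold more repeats and fast-evolving gene families and recombine more often. Larvae at stage L3 have a growing germ line beside their somatic tissues, and whole animals were used, so the list mixes the tissues. Spans and densities below refer to WormBase build WS180, and the peaks could not be matched to genes of that build, so peaks are named by position.

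Chromosome II carried 45.9 peaks per Mb over a span of 15.2 Mb (exact 95% Poisson interval 42.5 to 49.4). Chromosomes III, IV, V and X together carried 39.9 peaks per Mb (38.4 to 41.4), which makes II 1.15 times as dense (exact interval of the ratio 1.06 to 1.25). Among these, II lay below III at 53.4 and IV at 48.7 peaks per Mb, and above X at 34.6 and V at 28.0. Chromosome I, at 201 peaks per Mb, stood apart from all others and is given separately throughout. The listed peaks of II covered 840 kb in all, or 55.1 kb per Mb, against 50.1 kb per Mb on III, IV, V and X together. Singly these had 61.6, 58.8, 38.3 and 46.6 kb per Mb. These intervals cover counting error only, and peaks that lie close together are not independent. From one 1 Mb block of II to another the count varied with an SD of 21.2 around a mean of 44.9 (15 full blocks).

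The clearest feature of II was its sparse left side. Cut into 3 equal parts, its left part, up to 5.08 Mb, held 122 peaks, or 17.5% of the chromosome's peaks. The centre held 279 peaks (39.9%) and the right part, from 10.2 Mb on, held 298 (42.6%). Left, centre and right had 24.0 (19.9 to 28.7), 54.9 (48.7 to 61.7) and 58.6 (52.2 to 65.7) peaks per Mb. By counting error alone, only the left interval lay apart, and those of centre and right overlapped. Full 1 Mb blocks up to 5 Mb held 9 to 41 peaks, and those from 5 Mb on held 32 to 80. The left part had 0.423 times the density of the rest of II (exact interval of the ratio 0.345 to 0.515). The same ratio was 0.644 on III (0.541 to 0.763), 0.788 on V, 0.877 on X, 0.924 on I and 1.13 on IV. Chromosome II thus had the lowest ratio of the 6. Its interval did not reach that of III, the next lowest, but both cover counting error only, as if peaks were independent. Counts per 1 Mb block varied with an SD of 21.2 on II and 19.9 on III. The 2 intervals leave that spread out, so they cannot settle whether II differs from III. A sparse outer part was not particular to II. The left and right parts of V had 23.7 and 19.7 peaks per Mb, and the right part of IV had 33.5.

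In number of peaks, the right part of II was not below its centre. The right part of II had 1.07 times the density of its centre (0.904 to 1.26), a ratio whose interval includes 1. On III, IV and V it was 0.680, 0.559 and 0.486, on I 0.754, and on X 0.972. Covered sequence gave another picture, with 59.4 kb per Mb in the right part of II and 67.9 in its centre, against 66.3 and 74.1 on III, 46.7 and 55.0 on X, 86.7 and 107 on I, 40.6 and 72.7 on IV, and 30.7 and 54.3 on V. The median peak of II lay at 59.2% of the span, while on I, III, IV, V and X the median lay between 47.7% and 52.1%. Cut at the middle of the span, II had 254 peaks to the left and 445 to the right, a ratio of 0.571 (0.487 to 0.667), and the ratios of the other chromosomes ran from 0.847 on III to 1.12 on X.

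**Figure D1:**
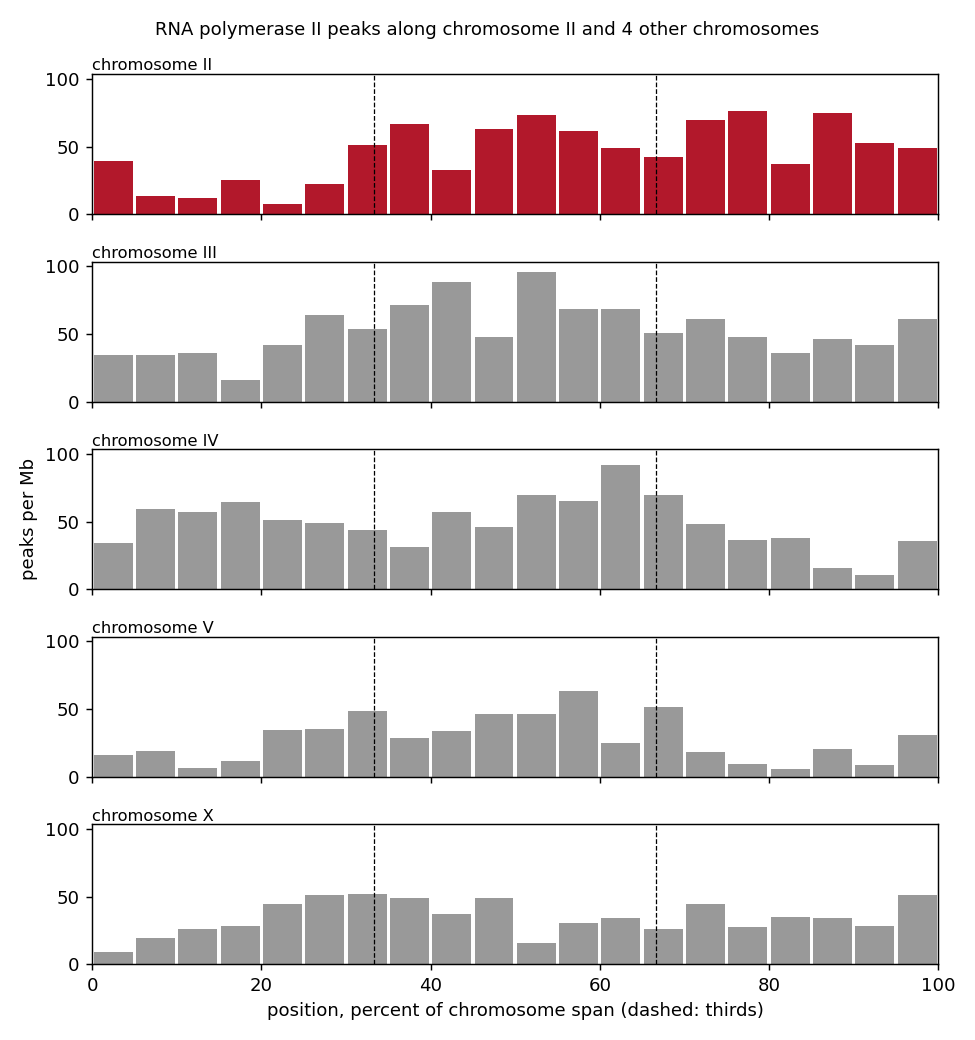
Peaks per Mb (vertical axis) in 20 equal bins of each chromosome's span (horizontal axis, percent), for chromosome II (red) above III, IV, V and X (grey), with dashed lines between the left, centre and right parts. Chromosome II is low between 5% and 30% of its span, where bins hold from 7.87 to 24.9 peaks per Mb, and its right part holds 58.6 peaks per Mb, against 54.9 in its centre; chromosome I, far denser, is not drawn.

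Seen in blocks of 1 Mb, the left part of II was uneven. The first block, from 0 to 1 Mb, held 31 peaks (exact Poisson interval 21.1 to 44.0). The blocks from 1 to 2 Mb and from 3 to 4 Mb were the sparsest full blocks, with 9 (4.12 to 17.1) and 10 peaks (4.80 to 18.4). They stood on either side of a block with 28 peaks. From 4 Mb the count went up to 41, and the block from 5 to 6 Mb, at the border of the centre, held 62. The densest were the blocks from 11 to 12 Mb with 80 peaks (63.4 to 99.6) and from 7 to 8 Mb with 71 peaks (55.5 to 89.6), 1 in the right part and 1 in the centre. The centre was not evenly full either, since the block from 6 to 7 Mb held 32 peaks between neighbours with 62 and 71. In windows of 100 kb, the densest of II was 11.7 to 11.8 Mb with 15 peaks.

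The 9 peaks between 1 and 2 Mb had a median width of 2640 bp and covered 31.6 kb, and the 10 peaks between 3 and 4 Mb covered 26.1 kb, the lowest value of the 15 full blocks. The block from 14 to 15 Mb, picked out after its values were seen, covered 26.8 kb with 36 peaks of a median width of 422 bp. Over the 15 full blocks the number of peaks and the covered length went together (Pearson r = 0.88), and the number of peaks and the median width went in opposite directions (Spearman rho = -0.53). Both values describe blocks of 1 chromosome that share their libraries and carry no test. The second relation was -0.36 on X, -0.35 on IV, -0.08 on V, 0.12 on I and 0.30 on III.

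The left part stood less far below the rest in covered sequence than in peak number. Left, centre and right had 37.9, 67.9 and 59.4 kb of peaks per Mb, and the left part had 0.595 times the covered length per Mb of the rest. Wide peaks, of at least 1 kb, made up 41.0% of the peaks on the left (50 of 122, exact binomial interval 32.2 to 50.3), 34.8% in the centre (97 of 279, 29.2 to 40.7) and 30.5% on the right (91 of 298, 25.4 to 36.1). The median width was 693 bp on the left (95% interval 485 to 1044), 538 bp in the centre (380 to 666) and 530 bp on the right (437 to 581). Both sets of intervals overlap, and the differences between the parts were not tested.

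Wide peaks form the bulk of the sequence covered by listed peaks on II. Peaks were from 1 to 14486 bp wide, with a median of 548 bp (95% interval 480 to 609) and quartiles of 201 and 1551 bp. The median on III, IV, V and X together was 562 bp (523 to 604), and on I 242 bp. Peaks of at least 1 kb were 238 of the 699 (34.0%, exact binomial interval 30.5 to 37.7) and held 81.1% of the covered base pairs, against 36.1% of peaks and 82.7% of base pairs on III, IV, V and X. The intervals of II and of these 4 chromosomes overlap for both the median and the share.

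By width class, the largest group of II was the 129 peaks of 200 to under 400 bp (18.5%), followed by 122 peaks of 400 to under 800 bp (17.5%) and 109 peaks under 100 bp (15.6%). The class from 100 to under 200 bp was the smallest, with 62 peaks (8.87%, 6.87 to 11.2). V and X had 8.05% and 8.69% in that class, IV 11.3% (9.23 to 13.6), III 13.7% and I 21.3%. The 103 peaks of 800 to under 1600 bp and the 103 of 1600 to under 3200 bp made up 14.7% each. The 71 peaks of 3200 bp or more were 10.2% of the peaks and held 43.3% of the covered base pairs.

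**Figure D2:**
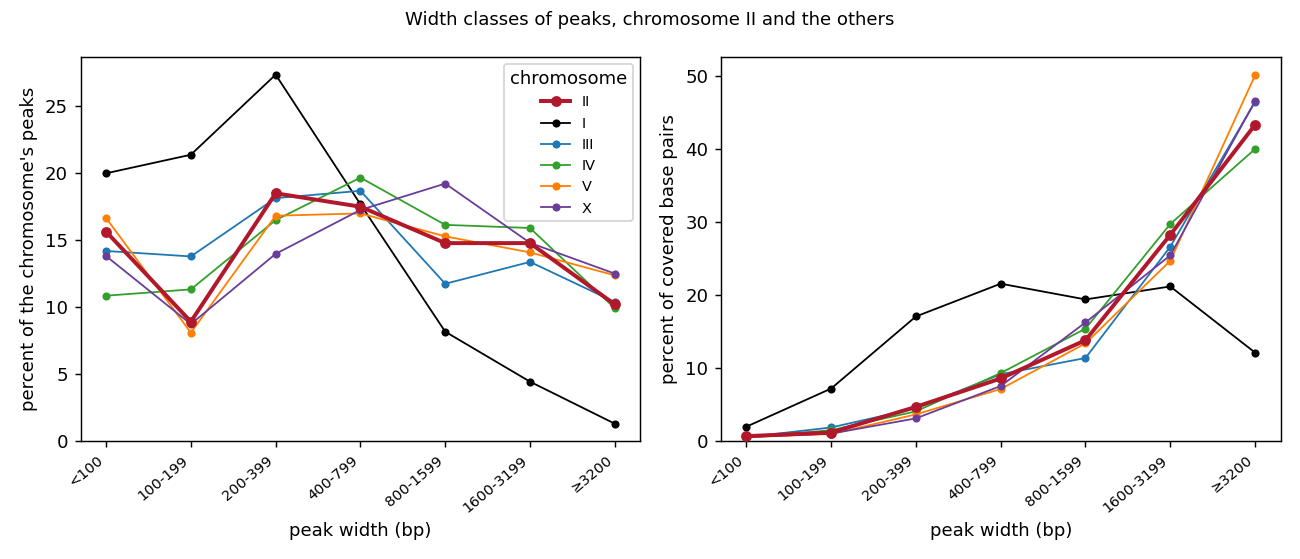
Share of each chromosome's peaks (left panel) and of its covered base pairs (right panel), in percent, by peak width class in bp, with chromosome II as the thick red line and the other 5 chromosomes as thin lines. Chromosome II follows III, IV, V and X, with 10.2% of its peaks and 43.3% of its covered base pairs at 3200 bp or more, while chromosome I has 1.25% and 12.1% there.

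The q values are the authors' own and serve here only to rank peaks within the list. Their median on II was somewhat above those of III, IV, V and X. The median −log10 q was 5.04 on II (95% interval 4.64 to 5.51) and 4.56 on III, IV, V and X together (4.36 to 4.77), with single medians from 4.20 on X to 4.80 on IV and 8.30 on I. The intervals of II and of the pooled 4 overlap. In the class of 800 to under 1600 bp, II had a median of 8.68 (6.81 to 10.7) and III, IV, V and X together 6.10 (5.41 to 6.78). These 2 intervals narrowly missed each other, but they treat peaks as independent. At 3200 bp or more the medians were 52.9 on II (35.1 to 73.6) and 47.7 on the other 4, and from 100 to under 200 bp they were 3.02 on both. Strong peaks, with a q below 1e-100, numbered 36 on II, or 5.15% of its peaks (exact binomial interval 3.63 to 7.06), against 3.60% on III, IV, V and X (2.94 to 4.36). Per Mb this gave 2.36 strong peaks on II (1.65 to 3.27) and 1.43 on the other 4 (1.17 to 1.74), and 6.85 on I. Of the 36 strong peaks, 22 were at least 3200 bp wide and 3 were under 1 kb, and the narrowest spanned 806 bp. Regions at the first 103 ranks of the list's own order are missing from it, so these counts cover listed peaks only.

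Listed strong peaks were rare in the left part of II. It held 2 of them among 122 peaks (1.64%, exact binomial interval 0.199 to 5.80), the centre 17 of 279 (6.09%, 3.59 to 9.58) and the right part 17 of 298 (5.70%, 3.36 to 8.98). The intervals overlap, and 2 peaks give a wide one. The places of the 103 unlisted ranks are unknown, and they could change these counts. For peaks of 3200 bp or more, whose widths differ within the class, the median −log10 q was 20.2 on the left (18 peaks), 64.4 in the centre (29 peaks) and 69.8 on the right (24 peaks). From 1600 to under 3200 bp it was 9.997, 16.7 and 18.7 in the same order, and from 800 to under 1600 bp 7.75, 8.62 and 8.80. Under 100 bp it was 3.02, 2.96 and 3.47, so the left part was not the lowest there. In the other classes below 800 bp the left part again had the lowest median. The medians were 2.47, 3.25 and 3.09 from 100 to under 200 bp, and 3.05, 3.65 and 3.95 from 200 to under 400 bp. From 400 to under 800 bp they were 3.47, 4.56 and 5.47. By rising width from 100 to under 3200 bp, the left part had only 10, 14, 17, 18 and 22 peaks per class. These class medians have no interval, and their differences were not tested. Over all widths the median −log10 q was 4.32 on the left, with an interval of 3.34 to 5.90. It was 4.66 in the centre (4.17 to 5.60) and 5.51 on the right (5.01 to 6.42). The left interval overlaps both others. The left parts of the other chromosomes had medians for peaks of 3200 bp or more of 32.3 on V, 49.6 on X, 50.04 on IV, 54.2 on III and 231 on I, all above the value of II.

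**Figure D3:**
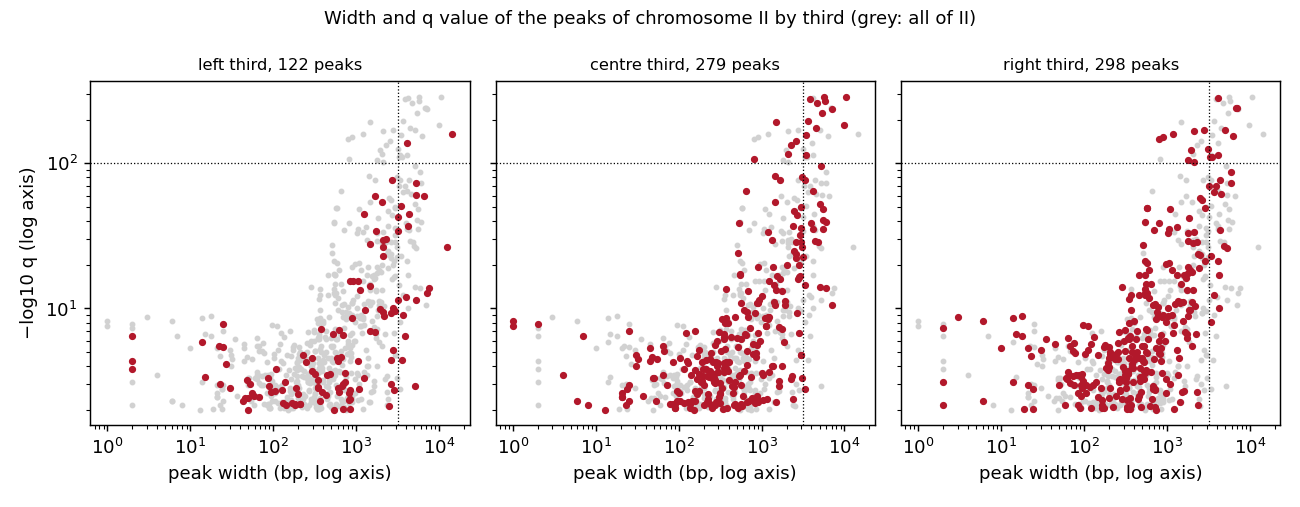
Peak width in bp (horizontal log axis) against −log10 q (vertical log axis) for the peaks of the left, centre and right parts of chromosome II (red; all peaks of II in grey), with dotted lines at 3200 bp and at a −log10 q of 100. The left panel has 2 points above a −log10 q of 100 and the other panels 17 each.

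The 10 peaks of II with the lowest q lay outside the left part, 7 in the centre and 3 on the right. They were between 3856 and 10538 bp wide, with −log10 q of 224 to 289. The lowest q, 2.37e-289, belonged to a peak of 5645 bp at 9933097 to 9938741, which stood 41.0 kb from the peak before it and 28.1 kb from the next. The peak at 8010866 to 8021403 came next, with a width of 10538 bp, and then the one at 11633868 to 11638040, with 4173 bp. These 3 stood at positions 7, 9 and 10 among the listed peaks, counted after the 103 unlisted ranks.

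The peak at 8786561 to 8790416 was 3856 bp wide, the narrowest of the 10, and had a neighbour at 1374 bp. The peak at 9617039 to 9622797 was 5759 bp wide and had its nearest neighbour 9684 bp away, which was itself a broad peak of 9854 bp at 9597501 to 9607354. The peak at 5659374 to 5664060, of 4687 bp, was the leftmost of the 10 and had no neighbour within 20 kb.

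The other 4 were the peaks at 10924778 to 10931579 (6802 bp), 12050511 to 12057477 (6967 bp), 6342577 to 6349736 (7160 bp) and 7773033 to 7778434 (5402 bp), with −log10 q from 224 to 241. Among all 10, the peak at 12050511 alone had another peak within 1 kb, at 625 bp. Regions at the first 103 ranks of the list's own order are missing from the list and were not analysed here.

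The 10 widest peaks of II were a partly different set, with 4 peaks in both. Here the left part held 4, the centre 4 and the right part 2. The widest listed peak, 14486 bp at 1232948 to 1247433, lay in the sparse block from 1 to 2 Mb. It had 70110 bp free of listed peaks before it and 72950 bp after it. It was 1 of the 2 strong peaks of the left part, with a −log10 q of 160. The second widest, 12624 bp at 3951179 to 3963802, had a −log10 q of 26.5.

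Great width went with modest q in several of these domains. The peaks at 1140741 to 1148298 (7558 bp), 2853536 to 2860665 (7130 bp) and 5333560 to 5340587 (7028 bp) had −log10 q of 13.9, 12.7 and 10.6. The first 2 of them lie on the left and the last near the left border of the centre. Peaks of almost equal width elsewhere on II, at 6342577 (7160 bp) and 12050511 (6967 bp), had 238 and 241. Of all 71 peaks of 3200 bp or more on II, 6 had a −log10 q under 10, and the lowest was 2.79 at 5590484 to 5593848 (3365 bp), named here after its value was seen. Across all 699 peaks width and −log10 q had a Spearman rho of 0.63, which was 0.63 on III, IV, V and X together and 0.84 on I.

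Broad domains of 3200 bp or more occurred at 4.66 per Mb on II (exact Poisson interval 3.64 to 5.87). On III, IV, V and X they occurred at 4.42 per Mb (3.94 to 4.94). Both densities count listed peaks only. On II 28 of the 71 (39.4%) had another peak within 1 kb, against 44.5% on III, IV, V and X. For peaks of all widths the shares were 41.6% on II and 39.1% on these 4 chromosomes.

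Gaps between neighbouring peaks on II spanned more than 3 orders of length. The shortest was 201 bp and the median 6492 bp (95% interval 4514 to 8503), with quartiles of 954 and 24750 bp. III and IV were close to this, with medians of 6074 and 4594 bp, while X and V had 10417 and 10932 bp and I 991 bp. Gaps of up to 1 kb were 25.6% of the 698 gaps of II and 23.1% of those on III, IV, V and X. At the other end, 23 gaps of II exceeded 100 kb and together took up 27.0% of its span. This share was 17.3% on III, 26.7% on IV, 33.6% on X and 43.6% on V, and I had 0 such gaps. Gaps over 50 kb took up 51.6% of the span on II. On III, IV, X, V and I they took up 46.2%, 53.7%, 61.4%, 70.2% and 11.9%. The median gap was 13067 bp between peaks of the left part (7228 to 20945), 7232 bp in the centre (4327 to 9145) and 4273 bp on the right (2554 to 6392).

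The longest gap of II, 747 kb between 1473616 and 2220631, was also the longest between listed peaks on any of the 6 chromosomes, ahead of 587 kb on V and 505 kb on X. Peaks of 30 bp and 2 bp bordered it. The next 2, of 387 kb from 3533812 to 3920358 and of 230 kb from 3304303 to 3533811, were divided by a single peak of 2 bp with a −log10 q of 3.80. The fourth was 226 kb from 5972446 to 6198475, in the centre, and the fifth 186 kb from 4094787 to 4280335. With peaks under 100 bp left out, the 2 largest empty stretches became 908 kb, from 1324376 to 2232600, and 647 kb, from 3304303 to 3951179. The longest on V was then 847 kb and on X 505 kb.

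Windows of 100 kb without a peak were mostly on the left. Of the 152 windows of II, 18 held no midpoint of a peak (11.8%), and 15 of these were among the 51 windows of the left part (29.4%, exact binomial interval 17.5 to 43.8). The centre had 1 empty window of 51 (1.96%, 0.0496 to 10.4) and the right part 2 of 50 (exact interval 0.488% to 13.7%). The longest run was 7 empty windows, from 1.5 to 2.2 Mb. On V, the sparsest chromosome, both ends were rich in empty windows, with 24.6% on the left, 8.57% in the centre and 33.3% on the right. Without the 747 kb of the longest gap, the left part would have 28.1 peaks per Mb, against 56.8 in the rest of II.

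**Figure D4:**
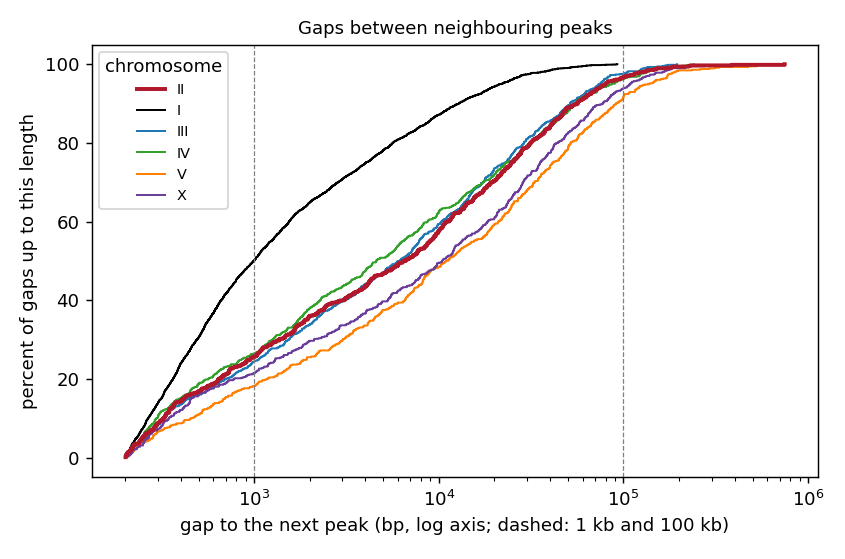
Cumulative share of gaps (vertical axis, percent) up to a given length in bp (horizontal log axis) for chromosome II (thick red) and the other 5 chromosomes, with dashed lines at 1 kb and 100 kb. The curve of II runs with those of III and IV through most of its length and reaches farthest to the right, to 747 kb.

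Short distances joined many peaks of II into clusters, defined as runs of peaks no more than 1 kb apart. In 112 clusters lay 291 peaks, 41.6% of those on II (exact binomial interval 37.9 to 45.4), against 39.1% on III, IV, V and X (37.2 to 40.9) and 70.7% on I. Pairs were the rule, with 72 clusters of 2 peaks, 24 of 3, 8 of 4, 7 of 5 and 1 of 8. Clusters of 5 or more peaks numbered 8 on II, against 3 on III, 5 on IV, 2 on X and 0 on V, and 116 on I. The median extent of a cluster on II was 3276 bp (2562 to 3906). The left part held 16 clusters, the centre 47 and the right part 49, and the share of peaks in clusters was 30.3% on the left (22.3 to 39.3), 41.6% in the centre (35.7 to 47.6) and 46.3% on the right (40.5 to 52.1).

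By their medians, clustered peaks on II were wider and stronger than lone ones. The 291 clustered peaks had a median width of 684 bp (568 to 866) and a median −log10 q of 5.98 (5.16 to 6.77), against 450 bp (355 to 542) and 4.57 (4.24 to 5.06) for the 408 lone peaks. Of the clusters, 75 of 112 (67.0%) held at least 1 peak of 1 kb or more. The same direction was seen on each other chromosome, where clustered peaks had medians of 287 to 902 bp and lone peaks of 193 to 488 bp. Peaks under 100 bp were less common in clusters (12.4%) than among lone peaks (17.9%) on II. Still, 36 of the 109 short peaks of II (33.03%) had a neighbour within 1 kb, and on III, IV, V and X this was 87 of 377 (23.1%).

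The largest cluster of II lay near its right end, at 15200242 to 15216627. Its 8 peaks, 472 to 3651 bp wide, covered 13017 of 16386 bp, and the strongest, of 3651 bp at 15206037 to 15209687, had a −log10 q of 63.2. The other 7 had values from 2.28 to 11.3. With peaks joined up to 5 kb it grew to 16 peaks over 36773 bp, from 15193499 to 15230271, and ended 14737 bp before the end of the last peak of II. The same joining gave at most 14 peaks on IV, 10 on III, 9 on V and 8 on X, and 29 on I.

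Another 7 clusters held 5 peaks each, of which 4 follow. The one at 9272179 to 9286068, in the centre, was made of wide peaks only, from 1349 to 4832 bp, which covered 12477 of its 13890 bp with a best −log10 q of 158. A cluster in the right part at 13138744 to 13151205 likewise had 5 peaks of at least 1219 bp and a best value of 123. The cluster at 12094980 to 12104282 mixed widths from 76 to 3534 bp and reached 112. The last of the 4, at 7887187 to 7894672, extended over 7486 bp without any strong member, its best −log10 q being 6.77.

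The first peak of II lay at 18775 to 19304, with a width of 530 bp and a −log10 q of 6.69, and had its next neighbour 347 bp away. The last, whose end was taken as the end of the span, lay at 15244945 to 15245008, with a width of 64 bp and a −log10 q of 3.64. A listed peak thus lay 18774 bp from the left tip, although the left part as a whole had the fewest peaks.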

How the data were processed

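The authors deposited 1 combined list of peaks for 2 ChIP and 2 input samples. Per the file headers it is on WormBase build WS180, and its source column names PeakSeq. No source used here gives the aligner, the filters or how replicates were combined. The deposited q-values (all below 0.01), a kind of adjusted p-value, only rank peaks. The protocol shared by all samples speaks of an anti-GFP serum and embryos, and the sample labels were followed.

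Coordinates are 1-based and closed. A chromosome's span runs to the end of its last peak, since no length of this build was at hand. The left, centre and right parts are equal lengths of the span, peaks are placed by midpoint, and a gap is the distance between neighbouring peaks. Intervals are exact Poisson or binomial (Clopper-Pearson) at 95%, for medians from order statistics, and for ratios from the binomial given the total. They cover only counting error, as if peaks were independent. No test was made, as the list has no value per sample. The ranks missing at the head of the list were counted as the number at which the most adjacent peaks share 1 product of q and rank, to a relative tolerance of 1e-10 (2414 pairs at 103, 0 at any other number up to 500).

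The chromosome, the measures and the alternatives were chosen with earlier results of these data known. Windows of 100 kb, the cut at the middle and peaks under 20 bp were added after the data were seen. Named regions are the 10 peaks of II with the lowest q, the 10 widest, the 5 longest gaps, the 5 largest clusters, the 2 densest and sparsest full blocks and the outermost peaks. The gene table at hand is of another build, so no gene was assigned and no sequence shown. Python 3.11.15, pandas 2.3.3, NumPy 2.4.6, SciPy 1.17.1 and matplotlib 3.10.9 were used, and the functions were checked on made-up peaks.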

Additional observations from a re-analysis of the deposited data

How the results depend on the processing

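Of 64 alternative values, 32 stayed within the 95% interval of the reported value (for block means, 1 SD; for counts, within 1.5 times it). Some of the 64 were fixed by arithmetic, so the tally does not measure robustness. The mean over 500 kb blocks equals that over 1 Mb blocks, and a longer joining distance cannot lower the share in clusters. The low density of the left part kept its direction under all 12 of its alternatives, 5 of them added after the data were seen. The ratio to the rest of II was 0.595 in covered base pairs, 0.571 for a cut at the middle, 0.532 for peaks of 1 kb or more, 0.679 for those of 3200 bp or more, and 0.780 if all 103 unlisted ranks lay on the left. The ratio of right part to centre turned to 0.874 in covered base pairs. The density of II over III, IV, V and X was 1.30 in the best 50% of the list by q, and 0.669 with chromosome I in the reference, which is the densest chromosome. Levels moved with the peaks kept. In the best 50% and 25% by q, II had 19.6 and 10.4 peaks per Mb, median widths of 1652 and 2494 bp, 66.2% and 84.2% of peaks of 1 kb or more, median −log10 q of 16.1 and 38.0, median gaps of 20476 and 46187 bp, and 30.4% and 17.7% of peaks in clusters. Without peaks under 100 bp these were 38.7 per Mb, 711 bp, 40.3% and a −log10 q of 5.90. Merging within 500 bp gave 38.1 per Mb, 38.2% of 1 kb or more, a median gap of 10400 bp and 19.3% in clusters. Joining up to 500 bp, 2 kb and 5 kb put 29.6%, 56.1% and 69.4% of peaks in clusters. Peaks of 1600 bp or more numbered 174, against 71 of 3200 bp or more. No paired analysis was possible because the list has no value per replicate, and for the same reason no replicate could be left out. Depth is unknown, and the 103 unlisted ranks limit statements on strong peaks and long gaps. The 10 listed peaks of II with the lowest q were all at least 3856 bp wide. The unlisted ranks therefore also limit statements on wide peaks, broad domains and covered sequence.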

Other observations

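By the median, the narrowest calls of chromosome II had lower q values than somewhat wider ones, with overlapping intervals. The 26 peaks of 1 to 19 bp had a median −log10 q of 5.64 (95% interval 3.12 to 7.30), and 14 of them (53.8%, exact binomial interval 33.4 to 73.4) lay above 5. The 34 peaks of 20 to 49 bp had a median of 3.26 (2.79 to 4.70), and 9 lay above 5 (26.5%, 12.9 to 44.4). This share overlapped that of the narrowest class in its interval. The 49 peaks of 50 to 99 bp had a median of 3.02 (2.68 to 3.37), and 7 lay above 5 (14.3%, 5.94 to 27.2). Peaks of 100 to under 200 bp on II had a median of 3.02 and 9 of 62 above 5 (14.5%, 6.86 to 25.8). The same order was seen on III, IV, V and X together, with 43.8% above 5 for 1 to 19 bp (56 of 128, 35.0 to 52.8) and 6.06% for 100 to under 200 bp (18 of 297, 3.63 to 9.41). On chromosome I the shares were 27.8%, 25.2%, 32.6% and 57.6% from the narrowest to the widest of these 4 classes. The 2 peaks of 1 bp on II were among these, and 7 more were 2 bp wide. The gaps between listed peaks were at least 201 bp on II and at least 200 bp on each other chromosome. 

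Short peaks with a low q were few. Among the peaks of II under 400 bp the highest −log10 q was 14.2, for a peak of 286 bp at 11917606 to 11917891 in the right part, with no other peak within 9 kb. It was picked out after the values were seen.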
